A study of Mus musculus with 5 samples.

Results

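The 7 genes described here are Cfap54, Dnah6, Spock1, Mthfs, Zfp949, AC149090.1 and Col6a1, out of 32285 genes measured in single nuclei of the mouse hippocampus. They were chosen by name, because earlier results of these data showed large shifts of each in neurons of libraries labelled as knockouts of monoacylglycerol lipase (MAGL). The levels in those libraries against the 5xFAD library therefore chose the genes and are given as a description. The series holds 5 libraries, 1 per group: wild type, 5xFAD, and 5xFAD carrying a MAGL knockout labelled as astrocyte-specific, neuron-specific or global. All 3 knockout groups thus also carry 5xFAD, a transgenic line used as a model of Alzheimer's disease, with transgenes expressed from a neuronal promoter. The labels used here give neither the promoter behind the cell-type-specific deletions nor the age, the sex or the number of animals in a library. RNA and open chromatin were read from the same nuclei (10x Multiome), with 4050 to 7498 nuclei per library and medians of 14068.5 to 17353.5 unique molecules (UMIs) of RNA per nucleus.

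With 1 library per group no test between groups was possible, and no p-value is given. A level is the summed UMIs of a gene over the nuclei of a class per 1000000 UMIs of that class (CPM). Ratios carry exact 95% intervals in square brackets, which cover counting error only and not the spread between animals. A gene counts as higher or lower when the CPM ratio was at least 2 or at most 0.5. Over excitatory or inhibitory neurons as a whole this needed at least 100 UMIs over both libraries, and in a neuron subtype or cluster, or another cell class, at least 20. Class and subtype names were given from marker genes and mean "X-like" throughout. The members were left out of the clustering. The 3 knockout libraries were each set against the same 5xFAD library, so those comparisons are not independent of each other.

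Mgll, the gene for MAGL, stood above 5xFAD in the knockout libraries in some classes and below it in others. Over all nuclei it stood at 74.3 CPM for wild type, 77.7 for 5xFAD and 92.5, 92.6 and 80.4 in the libraries labelled as astrocyte, neuron and global knockout. In excitatory neurons it was at 74.6 CPM in 5xFAD and at 95.1, 98.6 and 85.2 in the knockout libraries, and oligodendrocytes were also above 5xFAD in all 3. In astrocytes it was at 249 CPM in 5xFAD and 278 in the astrocyte-KO library, but at 174 [141 to 212] in the global-KO library and 399 in wild type. Inhibitory neurons stood at 113 CPM in 5xFAD and at 119, 97.3 and 99.8 in the astrocyte-KO, neuron-KO and global-KO libraries. Wild type was at 99.4 CPM there, near the neuron-KO and global-KO libraries and below 5xFAD. Reads from a deleted gene can persist when the deletion removes only some exons, and the deleted part is not given in the labels, so these values check none of the labels. The libraries are therefore named below by their labels only: astrocyte-KO, neuron-KO and global-KO library stand for the library labelled so, and knockout library stands for any of the 3. Values for 3 libraries follow that order, and values for 5 libraries put wild type and 5xFAD before them. Every library held both nuclei with Xist UMIs and nuclei with UMIs of Y-linked genes, so nuclei of both sexes were pooled. Nuclei with both made up 10.2 to 13.9% of kept nuclei, 3.7 to 6.2% of excitatory and 15.2 to 18.5% of inhibitory neurons. Between each pair of libraries 29 to 63 cell barcodes were shared. How many unrelated libraries would share was not computed, so no mixing of libraries is read from this.

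The members come from unrelated families. Cfap54 encodes a protein of the central apparatus of motile cilia and Dnah6 an axonemal inner-arm dynein heavy chain, both known for work in ciliated cells such as those of the ependyma. Spock1 encodes testican-1, a secreted proteoglycan of the brain's extracellular matrix. Mthfs encodes methenyltetrahydrofolate synthetase of one-carbon folate metabolism, Zfp949 a zinc finger protein, and Col6a1 a chain of type VI collagen. AC149090.1 is a gene model on an unplaced scaffold that overlaps a copy of Pisd, the gene for the mitochondrial enzyme that makes phosphatidylethanolamine from phosphatidylserine.

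In excitatory neurons, 4 of the 7 members were past 2-fold in the astrocyte-KO library, against a background of 3.32% of 15042 genes. In the neuron-KO library 5 of 7 were past it (background 3.85%), and in the global-KO library 4 of 7 (background 1.23%). Nothing is read from these counts, since these contrasts chose the genes. Over all genes these libraries also leaned upward: the calls split into 461 higher and 38 lower, 506 and 61, and 141 and 44, with median log2 ratios of 0.21, 0.18 and 0.04. Scaled by the median of gene ratios they split into 153 and 81, 208 and 97, and 127 and 51, with medians of -0.03, -0.04 and -0.02. Between 5xFAD and wild type 0 of 7 were past 2-fold, beside 0.324% of 14815 genes. The choice did not use wild type but did use this 5xFAD library, so this comparison is not independent of it. In single subtypes or clusters with at least 20 UMIs, Dnah6 was higher in 1 of 9 and lower in 1. Col6a1 was lower in 3 of 7. The label "in all neurons" held for Cfap54 and AC149090.1, which stood on the same side of 5xFAD in 14 of 14 neuron subtypes or clusters in all 3 knockout libraries. By the same measure it held in 1 library each for Spock1 (neuron-KO, 14 of 14 below 5xFAD) and for Mthfs and Zfp949 (global-KO, 14 of 14 above). Dnah6 and Col6a1 were measurable in only some subtypes.

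**Figure D1:**
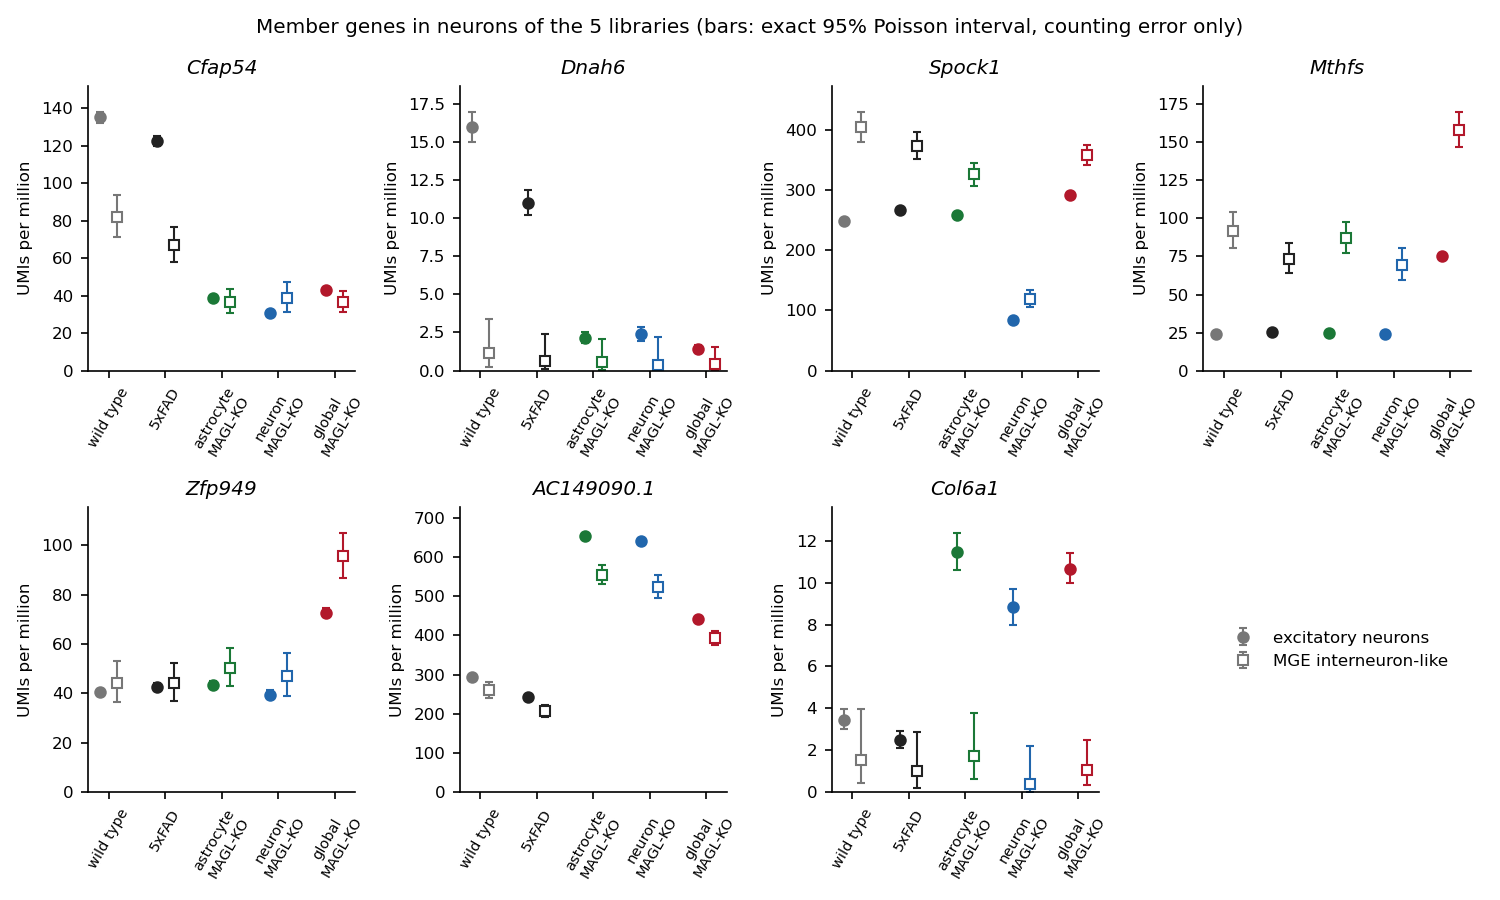
Level of each of the 7 members (CPM, linear axis from 0) in the 5 libraries, in excitatory neurons (filled circles) and MGE interneurons (open squares), with exact 95% Poisson intervals as bars. Cfap54 and Dnah6 are low in the 3 knockout libraries, Spock1 is low in the neuron-KO library, and Mthfs and Zfp949 are high in the global-KO library.

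Cfap54 (chr10:92775619-93081618, minus strand, mm10) was detected in all 14 neuron subtypes or clusters and stood lower in every knockout library. Its level in excitatory neurons was 135.2 CPM for wild type, 122.4 for 5xFAD and 38.8, 30.9 and 43.2 in the 3 knockout libraries. The 3 knockout libraries lay close together and well below the other pair. The ratios to 5xFAD were 0.317 [0.302 to 0.332], 0.252 [0.238 to 0.267] and 0.353 [0.338 to 0.367]. Counted from the lowest ratio of all genes tested in excitatory neurons, Cfap54 ranked 15 of 15042, 9 of 14711 and 21 of 15050. Cfap54 was past 2-fold lower in 13, 13 and 12 of the 14 subtypes or clusters.

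Among the subtypes, dentate granule neurons gave Cfap54 levels of 138.8 CPM in wild type, 126.9 in 5xFAD and 29.9, 20.8 and 30.8 in the 3 knockout libraries. CA3 neurons started from 56.9 CPM in 5xFAD and stood at 20.6, 8.89 and 18.2. CA2 neurons stood at 191 CPM in 5xFAD against 69.5, 61.1 and 60.1. The smallest difference was in interneurons of the medial ganglionic eminence lineage (MGE), the Pvalb and Sst class, at 66.9 CPM in 5xFAD and 36.7, 38.8 and 36.6 in the knockout libraries, a log2 ratio of -0.87, -0.79 and -0.87. In that class the level stayed within 2-fold in each of the 3. The dentate granule class was made of 4 clusters (7, 8, 11 and 12) whose shares differed between libraries. Cluster 12 held 15.4% and 14.6% of it in wild type and 5xFAD and 36.1%, 35.1% and 41.5% in the knockout libraries, and cluster 8 held 49.9% and 50.3% against 33.6%, 37.8% and 31.6%. Cfap54 stood lower within each: cluster 8 gave 117.8 CPM in 5xFAD and 27.3, 22.1 and 22.5, and cluster 12 gave 136.1 and 34.2, 16.5 and 32.6. Excitatory nuclei of both sexes gave the same picture: nuclei with Xist were at 114 CPM in 5xFAD and 39.0, 29.6 and 42.9 in the knockout libraries, and nuclei with Y-linked UMIs at 129 and 36.1, 36.4 and 43.0.

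Outside neurons, Cfap54 counts were small. Oligodendrocytes held 20 UMIs in wild type and 45 in 5xFAD, against 1, 2 and 0 in the 3 knockout libraries. The 0 UMIs of the global-KO library allow a level of up to 4.49 CPM. These counts pool all nuclei of the class, including any with UMIs of both Xist and Y-linked genes. Xist nuclei held 5 and 3 of these UMIs in wild type and 5xFAD, and 1, 0 and 0 in the knockout libraries. Y-linked nuclei held 6 and 7, and 0, 2 and 0. The remaining UMIs lay in nuclei outside these calls. The part of mixed nuclei in them was not tested, so no loss within oligodendrocytes is read from these counts. The choroid plexus class was at 171 CPM in wild type and 179 in 5xFAD, and at 42.2, 149 and 50.5 in the knockout libraries. There the neuron-KO library stayed near 5xFAD (ratio 0.832 [0.556 to 1.25]) and the other knockout libraries were lower, on 8 and 18 UMIs against 48. Astrocytes gave 39.5 CPM in wild type, 57.7 in 5xFAD and 43.0, 27.7 and 53.3 in the knockout libraries, from 13 to 34 UMIs each. The intervals of the ratio to 5xFAD reach 1 in the astrocyte-KO and global-KO libraries. The neuron-KO level, with an interval of 14.7 to 47.3 CPM, overlapped that of wild type, 23.4 to 62.4 CPM.

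Dnah6 (chr6:73017606-73221651, minus strand) was read mainly in CA1, subicular and cortical neurons. RefSeq lists a promoter for it. The 230 bases before the start in the gene annotation (GENCODE vM21) are shown because the gene stood lower in all 3 knockout libraries while chromatin at its promoter stayed within 2-fold. The capitals mark TGACGTCA, the palindromic cyclic AMP response element, 175 bases before the RefSeq start, which lies a little downstream of the printed stretch; read on both strands, 1.55% of 32851 mouse RefSeq promoter windows hold these letters. The sequence is chr6:73221652-73221881, minus strand, GRCm38.p6.
Dnah6: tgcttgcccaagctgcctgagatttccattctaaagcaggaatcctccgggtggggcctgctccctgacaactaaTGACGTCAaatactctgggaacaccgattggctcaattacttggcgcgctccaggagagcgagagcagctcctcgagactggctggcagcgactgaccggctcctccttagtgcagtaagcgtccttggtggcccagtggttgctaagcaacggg
The match is a description of the letters and no evidence of binding.

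In excitatory neurons Dnah6 was at 15.95 CPM for wild type, 10.98 for 5xFAD and 2.14, 2.38 and 1.40 in the 3 knockout libraries. The 3 knockout libraries were 5.14-fold, 4.62-fold and 7.84-fold lower than 5xFAD. 5xFAD itself was below wild type, at a ratio of 0.688 [0.624 to 0.758], within 2-fold. Single subtypes differed: deep cortical neurons of 5xFAD were past 2-fold below wild type (log2 ratio -1.08). An inhibitory cluster with no subtype name was past 2-fold above it (1.45). The same cluster gave the lowest ratio of the astrocyte-KO library to 5xFAD, a log2 ratio of -4.79. CA1 pyramidal neurons stood at 47.2 CPM in wild type and 30.2 in 5xFAD, against 1.78, 2.14 and 1.20, a ratio to 5xFAD of 0.0588 [0.0355 to 0.0921] in the astrocyte-KO library. Subicular neurons were at 25.6 and 20.0 CPM in wild type and 5xFAD and kept 7.18, 6.68 and 4.71. Upper cortical neurons were at 25.0 and 14.2 against 1.43, 1.21 and 0.341.

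Dentate granule, CA2 and CA3 neurons held next to no Dnah6 in any library. The dentate granule counts were 9, 6, 13, 4 and 4 UMIs, and CA2 gave 1 UMI in 5 libraries. MGE interneurons held 1 to 3 UMIs per library, so no ratio is read there. Of the 9 subtypes or clusters with at least 20 UMIs, all 9 were below 5xFAD in each comparison, and 7, 6 and 7 were past 2-fold. In the choroid plexus class Dnah6 was at 110 CPM for wild type, 127 for 5xFAD and 68.6, 130 and 115 in the 3 knockout libraries, within 2-fold of 5xFAD throughout. The intervals there rest on 13 to 49 UMIs per library.

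Of 50 axonemal and ciliary genes listed, 48 were measured, and 39, 37 and 40 had enough UMIs in excitatory neurons in the 3 knockout comparisons. In the astrocyte-KO library, Spag16 of the central apparatus was higher (2.12 to 4.71 CPM) and Cfap206 of the radial spokes lower (1.93 to 0.918 CPM). In the neuron-KO library, the dynein gene Dnah1 was higher (1.52 to 3.30 CPM) and Cfap206 lower, at 0.600 CPM. In the global-KO library none of the 40 were past 2-fold. These 2, 2 and 0 genes stand beside the 3.32%, 3.85% and 1.23% of all genes past 2-fold given above, and nothing particular to the list is read from them. In inhibitory neurons 17, 16 and 18 listed genes had enough UMIs, and 0, 1 and 1 were past 2-fold, both higher: the radial spoke gene Rsph9 in the neuron-KO library (4.41 to 9.04 CPM) and Spag16 in the global-KO library (3.53 to 8.31 CPM). Of all genes tested in inhibitory neurons, 2.46%, 2.84% and 0.397% were past 2-fold. In excitatory neurons the list's median log2 ratio was 0.25, 0.11 and 0.21, beside 0.21, 0.18 and 0.04 over all genes tested. This list was drawn up with earlier results known and does not hold the members.

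Spock1 (chr13:57421195-57908332, minus strand) spans the longest locus of the 7. Its promoter window is printed because in the library where the gene was low, 6 of its intronic chromatin regions were past 2-fold less open while the promoter stayed within 2-fold. The capitals mark TGAATCA, a match to the AP-1 motif TGANTCA, 115 bases before the RefSeq start, and CCGCCC, the reverse strand of the GC box GGGCGG, 31 bases before it; 6.75% and 32.7% of the promoter windows hold these motifs on either strand. The 250 bases lie at chr13:57908333-57908582, minus strand, GRCm38.p6.
Spock1: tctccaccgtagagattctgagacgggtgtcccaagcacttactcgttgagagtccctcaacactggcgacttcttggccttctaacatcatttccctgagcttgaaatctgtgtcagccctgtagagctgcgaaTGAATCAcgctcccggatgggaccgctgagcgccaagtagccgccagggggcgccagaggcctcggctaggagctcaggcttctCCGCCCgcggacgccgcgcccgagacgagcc

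In excitatory neurons Spock1 stood at 248.5 CPM for wild type, 266.1 for 5xFAD, 258.1 in the astrocyte-KO library, 84.8 in the neuron-KO library and 291.8 in the global-KO library. A single library was low, and the other 4 lay between 248.5 and 291.8. The ratio to 5xFAD was 0.318 [0.308 to 0.330], a 3.14-fold lower level, and 13 of 14 subtypes or clusters were past 2-fold lower. CA2 and CA3 neurons, the hippocampal fields with the highest levels, gave 1234 and 1050 CPM in 5xFAD and 484 and 396 in the neuron-KO library. Subicular neurons showed the largest difference, 158 against 21.7 CPM, a log2 ratio of -2.87. In CA1 the levels were 65.1 and 30.6 CPM.

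Dentate granule neurons had the lowest Spock1 levels of the hippocampal fields. They stood at 21.4 CPM for wild type, 11.1 for 5xFAD and 19.7, 7.77 and 27.8 in the 3 knockout libraries. The neuron-KO library was within 2-fold of 5xFAD there (log2 -0.51), and the global-KO library was 2.51-fold higher. These class levels mix 4 clusters in different shares. Cluster 7 stood at 5.06, 4.40, 3.90, 1.44 and 2.91 CPM and cluster 8 at 4.17, 3.60, 4.19, 1.96 and 8.57. Cluster 11 stood at 40.3, 27.9, 50.6, 9.95 and 34.5 CPM and cluster 12 at 60.6, 23.7, 26.6, 14.5 and 46.1. The global-KO library was thus past 2-fold above 5xFAD in cluster 8 only, and was lower in cluster 7 on 10 and 21 UMIs. The neuron-KO library had the lowest value of the 5 in each cluster and was past 2-fold below 5xFAD in cluster 11 (27 and 99 UMIs) and cluster 7 (4 and 21 UMIs). In clusters 7 and 8 its counting interval overlapped that of 5xFAD. Inhibitory neurons followed the excitatory pattern, with 464, 448, 399, 159 and 413 CPM in the order of libraries above and a ratio of 0.354 [0.336 to 0.374] in the neuron-KO library.

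The low Spock1 level in the neuron-KO library was much deeper in nuclei with Y-linked UMIs. In excitatory neurons these stood at 230, 254, 284, 10.7 and 298 CPM, while nuclei with Xist stood at 249, 275, 232, 107 and 284 CPM. Against 5xFAD the log2 ratio was -4.57 in Y-linked nuclei and -1.36 in Xist nuclei. The share of excitatory nuclei with a Spock1 UMI in that library was 10.7% among the 439 Y-linked nuclei and 27.9% among the 1796 Xist nuclei, at median depths of 16219 and 16480 UMIs. For comparison, 1.89% of its microglia, which should lack the transcript, had a Spock1 UMI, at a median of 2913 UMIs. The same split appeared in inhibitory neurons (182 CPM in Xist nuclei, 20.9 in Y-linked nuclei) and in oligodendrocytes (197 and 10.1 CPM), and the numbers of animals behind the 2 sexes are not known.

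Spock1 was also lower in oligodendrocytes of the neuron-KO library. Oligodendrocytes, the myelinating glia, were at 570, 545, 584, 157 and 561 CPM, a ratio to 5xFAD of 0.288 [0.245 to 0.338] in the neuron-KO library. Their precursors stood at 72.6, 32.4, 93.3, 13.4 and 68.6 CPM, so there 5xFAD was itself past 2-fold below wild type, and the intervals of 5xFAD and the neuron-KO library overlapped (19 and 10 UMIs). In astrocytes the levels were 178 CPM for wild type, 89.9 for 5xFAD, 160.5 and 61.8 in the astrocyte-KO and neuron-KO libraries, and 396 in the global-KO library, a ratio of 4.40 [3.25 to 6.06] to 5xFAD. The choroid plexus class was at 250.1, 89.4, 126.7, 39.9 and 407 CPM, so there 5xFAD (24 UMIs) was itself past 2-fold below wild type (105 UMIs). In the astrocyte class 22.0% of nuclei carried UMIs of both Xist and Y-linked genes, and the part of such mixed nuclei in these levels was not tested. The other testican genes stayed within 2-fold in excitatory neurons: Spock2 ranged from 68.8 to 79.5 CPM and Spock3 from 292 to 358.

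**Figure D2:**
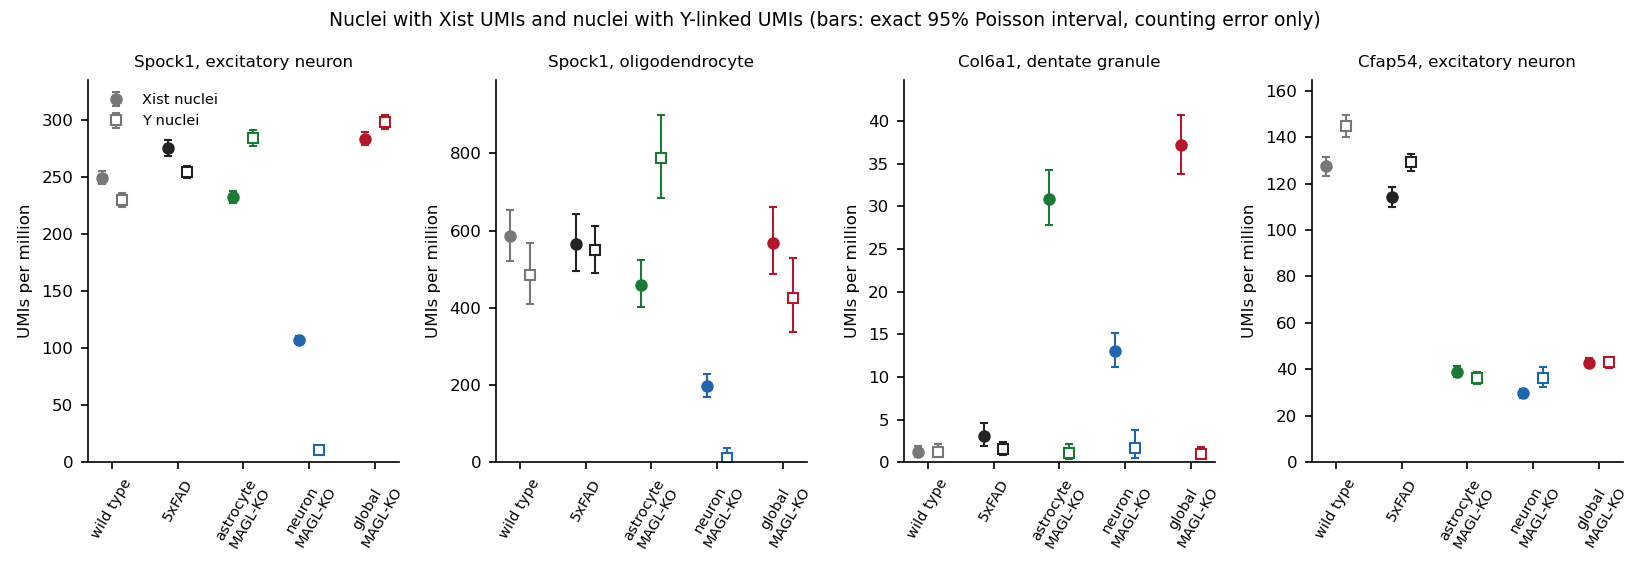
Levels (CPM) of Spock1 in excitatory neurons and oligodendrocytes, Col6a1 in dentate granule neurons and Cfap54 in excitatory neurons, split into nuclei with Xist UMIs (filled circles) and nuclei with UMIs of Y-linked genes (open squares), with exact 95% Poisson intervals. Spock1 in the neuron-KO library is lower in Y-linked nuclei, and Col6a1 in the knockout libraries is high in Xist nuclei, many of which sit in dentate granule cluster 12 there, and near 1 in Y-linked nuclei, and Cfap54 is similar in both.

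Mthfs (chr9:89210676-89377713, plus strand) and Zfp949 (chr9:88548020-88571061, plus strand) lie 639.6 kb apart on chromosome 9, and both were high in the global-KO library. Upstream sequence of a RefSeq start of Mthfs that lies inside the annotated gene is shown as the 217 bases chr9:89210940-89211156, plus strand, GRCm38.p6, because a chromatin region over it was more open in the library where the gene was high. The capitals mark CCGCCC, the reverse strand of the GC box; the shares of promoters with each motif are those given above.
Mthfs: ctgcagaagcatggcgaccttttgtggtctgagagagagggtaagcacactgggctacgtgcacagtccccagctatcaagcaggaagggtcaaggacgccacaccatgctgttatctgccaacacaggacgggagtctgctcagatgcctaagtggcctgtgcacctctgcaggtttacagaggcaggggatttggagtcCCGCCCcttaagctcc

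In excitatory neurons Mthfs was at 23.7 CPM for wild type, 25.1 for 5xFAD, 24.7 and 23.9 in the astrocyte-KO and neuron-KO libraries, and 75.3 in the global-KO library. That library alone was high, at a ratio of 3.00 [2.84 to 3.17] to 5xFAD, and the other 4 differed by less than 2 CPM. It was past 2-fold higher in 13 of 14 subtypes or clusters, up to a log2 ratio of 2.03 in upper cortical neurons. An inhibitory cluster with no subtype name was the exception, at 0.91. Dentate granule neurons stood at 17.2, 18.8, 17.8, 16.2 and 63.3 CPM, and MGE interneurons at 91.8, 73.5, 86.9, 69.7 and 158 CPM. Xist and Y-linked excitatory nuclei were both high in that library, at 74.9 and 75.5 CPM.

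Outside neurons the Mthfs ratio in the global-KO library varied between classes. Microglia, the brain's resident macrophages, were within 2-fold. They stood at 284, 348, 303, 323 and 322 CPM in wild type, 5xFAD and the 3 knockout libraries, on 27 to 78 UMIs each. The ratio to 5xFAD in the global-KO library was 0.926 [0.655 to 1.31]. That interval and the interval in excitatory neurons do not overlap, within counting error. Oligodendrocytes were at 77.0 CPM in 5xFAD and 95.8 in that library, and oligodendrocyte precursors at 99.0 and 116, both within 2-fold. Astrocytes were at 33.9 and 65.7 CPM (20 and 37 UMIs), a ratio of 1.94 [1.09 to 3.52]. Wild type astrocytes were at 59.3 CPM and those of the astrocyte-KO and neuron-KO libraries at 38.4 and 74.5. The global-KO library thus did not stand alone there. The choroid plexus class stood at 26.1 and 95.5 CPM on only 7 and 34 UMIs, a ratio of 3.66 [1.60 to 9.79].

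The other enzymes of one-carbon folate metabolism showed no such shift. Of 22 genes listed, 20 had enough UMIs in excitatory neurons in the comparison of the global-KO library with 5xFAD, and none was past 2-fold; the median log2 ratio was 0.07 beside 0.04 over all genes. The Mthfs-like gene Mthfsl stayed at 20.4 to 23 CPM across the 5 libraries. In the astrocyte-KO and neuron-KO libraries none of the 20 and 19 tested were past 2-fold either.

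Zfp949 stood at 40.3, 42.6, 43.2, 39.3 and 72.6 CPM in excitatory neurons. The global-KO library was again the high one, at a ratio of 1.70 [1.63 to 1.78] to 5xFAD, within 2-fold. All 14 subtypes or clusters were above 5xFAD there, from a log2 ratio of 0.22 in CA2 to 1.11 in MGE interneurons, and 3 of 14 were past 2-fold. Inhibitory neurons were past it as a class, with 42.9, 44.2, 47.8, 41.7 and 93.1 CPM and a ratio of 2.11. The ratios in glia of the oligodendrocyte lineage were larger, within counting error: oligodendrocytes were at 48.6 CPM in 5xFAD and 119.7 in that library, 2.46 [1.77 to 3.44], and oligodendrocyte precursors at 49.5 and 157.9, 3.19 [2.05 to 5.07]. The oligodendrocyte interval starts just below the upper end of the excitatory one, and that of the precursors above it. This was not particular to that lineage. Astrocytes were at 54.3 CPM in 5xFAD and 110 in the global-KO library (32 and 62 UMIs). Microglia were at 32.5 and 87.8 (7 and 18 UMIs), and the choroid plexus class at 37.2 and 98.3 (10 and 35 UMIs).

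Other genes near Mthfs also stood apart in that library. Of 19 other genes within 1 Mb tested in excitatory neurons, 3 were higher: the gene models Gm47403 (3.61-fold, 183 kb away) and Gm47409 (5.64-fold, 260 kb away) and Minar1 (4.92-fold, 245 kb away). The gene model 9430037G07Rik, 28.2 kb from Zfp949 and 611 kb from Mthfs, was lower, at a ratio of 0.392. The background in that comparison was 1.23% of genes past 2-fold.

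AC149090.1 lies on the unplaced scaffold JH584304.1 at 52190-59690, minus strand, where RefSeq places the Pisd pseudogene Pisd-ps3. Reads from near-identical Pisd copies could be assigned to it or lost from it, so its level is uncertain as a measure of 1 locus. In excitatory neurons it stood at 294.1 CPM for wild type, 242.1 for 5xFAD and 653.9, 640.1 and 441.6 in the 3 knockout libraries. Every knockout library was above 5xFAD in 14 of 14 subtypes or clusters, and the global-KO library was the lowest of the 3 in excitatory neurons. The ratios were 2.70 [2.65 to 2.75], 2.64 [2.59 to 2.70] and 1.82 [1.79 to 1.86], and 14, 14 and 5 of 14 subtypes were past 2-fold. 5xFAD was below wild type in 14 of 14 subtypes, within 2-fold in each, at a ratio of 0.823 [0.806 to 0.841] over excitatory neurons.

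AC149090.1 was high in glia too. Oligodendrocytes stood at 147, 118, 401, 303 and 187 CPM, and astrocytes at 193, 183, 420, 439 and 371 CPM. Microglia were at 725 CPM for wild type, 473 for 5xFAD and 754, 773 and 673 in the knockout libraries, so that wild type lay within the range of the knockout libraries there. Pisd itself ranged from 32.3 to 37.2 CPM in excitatory neurons, and the 4 tested genes of phosphatidylserine metabolism stayed within 2-fold in every comparison.

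Col6a1 (chr10:76708792-76726168, minus strand) was low in excitatory neurons of every library and higher in the 3 knockout libraries. Its trimmed promoter is shown as 126 bases at chr10:76726169-76726294, minus strand, GRCm38.p6, with a second window of 30 bases at chr10:76726116-76726145 around a match to the AP-1 motif TGANTCA, in capitals, 90 bases before the RefSeq start. The second window lies inside the annotated gene and is shown for this match alone. A chromatin region over this start was listed in the 3 knockout libraries alone.
Col6a1: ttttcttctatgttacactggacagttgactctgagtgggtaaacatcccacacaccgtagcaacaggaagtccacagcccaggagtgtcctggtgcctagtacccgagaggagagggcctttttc
Col6a1 motif window: tgctgatgctgTGACTCActcagctttgag

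Over excitatory neurons Col6a1 stood at 3.47 CPM for wild type, 2.49 for 5xFAD and 11.47, 8.83 and 10.68 in the 3 knockout libraries, on 159 to 831 UMIs. All 3 knockout libraries were above the other pair, at ratios to 5xFAD of 4.60 [3.86 to 5.50], 3.54 [2.94 to 4.28] and 4.28 [3.61 to 5.11]. It was past 2-fold higher in 8 of 11, 6 of 8 and 8 of 10 subtypes or clusters with at least 20 UMIs. In the global-KO library 1 of the 10 was past 2-fold lower. Dentate granule neurons stood at 1.14 and 2.02 CPM in wild type and 5xFAD and 19.6, 10.8 and 20.4 in the knockout libraries. Their ratios were 9.71 [7.0 to 13.8], 5.35 and 10.1 [7.33 to 14.3]. Among subtypes with a Col6a1 UMI in 5xFAD, which leaves out CA3, the highest ratios were those of CGE interneurons. They rest on 1 UMI in 5xFAD against 28, 46 and 37 in the knockout libraries, with lower bounds of 5.55, 8.03 and 7.48. Wild type held 12 UMIs there, at 2.87 CPM beside 5.76, 8.07 and 7.61. In CA1 the wild type level of 5.84 CPM was within 2-fold of the 9.68, 10.5 and 6.32 CPM in the knockout libraries, and 5xFAD was the low library at 2.48, past 2-fold below wild type (ratio 0.424 [0.272 to 0.647]). Over excitatory nuclei with Y-linked UMIs alone the log2 ratios were 0.99, 0.76 and 0.51, none of them past 2-fold.

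CA2 neurons held no Col6a1 UMI in any library, which allows up to 2.89 to 5.09 CPM. CA3 neurons held 28 UMIs in wild type, 0 in 5xFAD and 36, 27 and 56 in the knockout libraries, so there the 5xFAD library stood apart, with a level of up to 0.532 CPM allowed, and wild type at 4.87 CPM was near the 8.42, 8.0 and 7.01 CPM of the knockout libraries. Deep cortical neurons were below 5xFAD in the neuron-KO library (4.46 against 7.18 CPM on 13 and 21 UMIs, within 2-fold) and in the global-KO library (3.59 CPM on 17 UMIs, log2 ratio -1.0, just past 2-fold). Upper cortical neurons of the astrocyte-KO library were also slightly below, at 3.81 against 4.20 CPM on 8 and 16 UMIs. Microglia and oligodendrocyte precursors held 0 UMIs.

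Over the dentate granule class, Col6a1 was higher in Xist nuclei than in Y-linked nuclei of the knockout libraries, but these nuclei were spread differently over its clusters. Xist nuclei stood at 1.13 CPM for wild type, 3.03 for 5xFAD and 30.9, 13.1 and 37.2 in the knockout libraries. Y-linked nuclei of the same class stood at 1.22, 1.49, 1.05, 1.60 and 0.93 CPM. The share of nuclei with a Col6a1 UMI was 25.5%, 13.4% and 27.9% among Xist nuclei of the 3 knockout libraries and 1.18%, 2.36% and 1.00% among their Y-linked nuclei, where median depths overlapped (10772 to 14218 and 11048 to 13920 UMIs). In oligodendrocytes, which held next to none, 0 to 0.297% of nuclei had a UMI, at medians of 2234 to 3295 UMIs.

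Both class comparisons, between libraries and between Xist and Y-linked nuclei, set nuclei that are spread differently over the clusters against each other. Cluster 12, whose larger share in the knockout libraries is given above, held 131 Xist and 103 Y-linked nuclei in wild type and 73 and 120 in 5xFAD. In the knockout libraries it held 541 and 51, 358 and 28, and 723 and 72. Its Col6a1 level was 3.82, 7.20, 47.9, 27.6 and 45.6 CPM, so the knockout libraries were also higher within it. Cluster 8 stood at 0.834, 1.62, 5.20, 1.78 and 2.60. Cluster 11 stood at 0.917, 1.41, 4.63, 0 and 5.36, on 5 UMIs in 5xFAD and 0 in the neuron-KO library. Cluster 7 held at most 2 UMIs in a library. The neuron-KO library was thus past 2-fold above 5xFAD in cluster 12 only.

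Within cluster 12, Xist nuclei were at 3.01, 8.99, 52.5, 30.0 and 51.6 CPM. Y-linked nuclei of that cluster were at 5.76, 6.17, 10.9, 7.96 and 5.93 CPM, on 6, 3 and 5 UMIs in the knockout libraries, with intervals of 3.99 to 23.7, 1.64 to 23.3 and 1.93 to 13.8 CPM. In cluster 8, Xist nuclei were at 10.4, 1.56 and 3.75 CPM in the knockout libraries and 2.76 in 5xFAD. Sex and animal cannot be told apart, since the number of animals of each sex in a library is not known. Of the other type VI collagen chains, Col6a2 ranged from 1.51 to 2.12 CPM in excitatory neurons, within 2-fold, and Col6a4 was lower in the neuron-KO library, at 1.01 CPM against 3.40 in 5xFAD (47 and 217 UMIs, ratio 0.296).

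**Figure D3:**
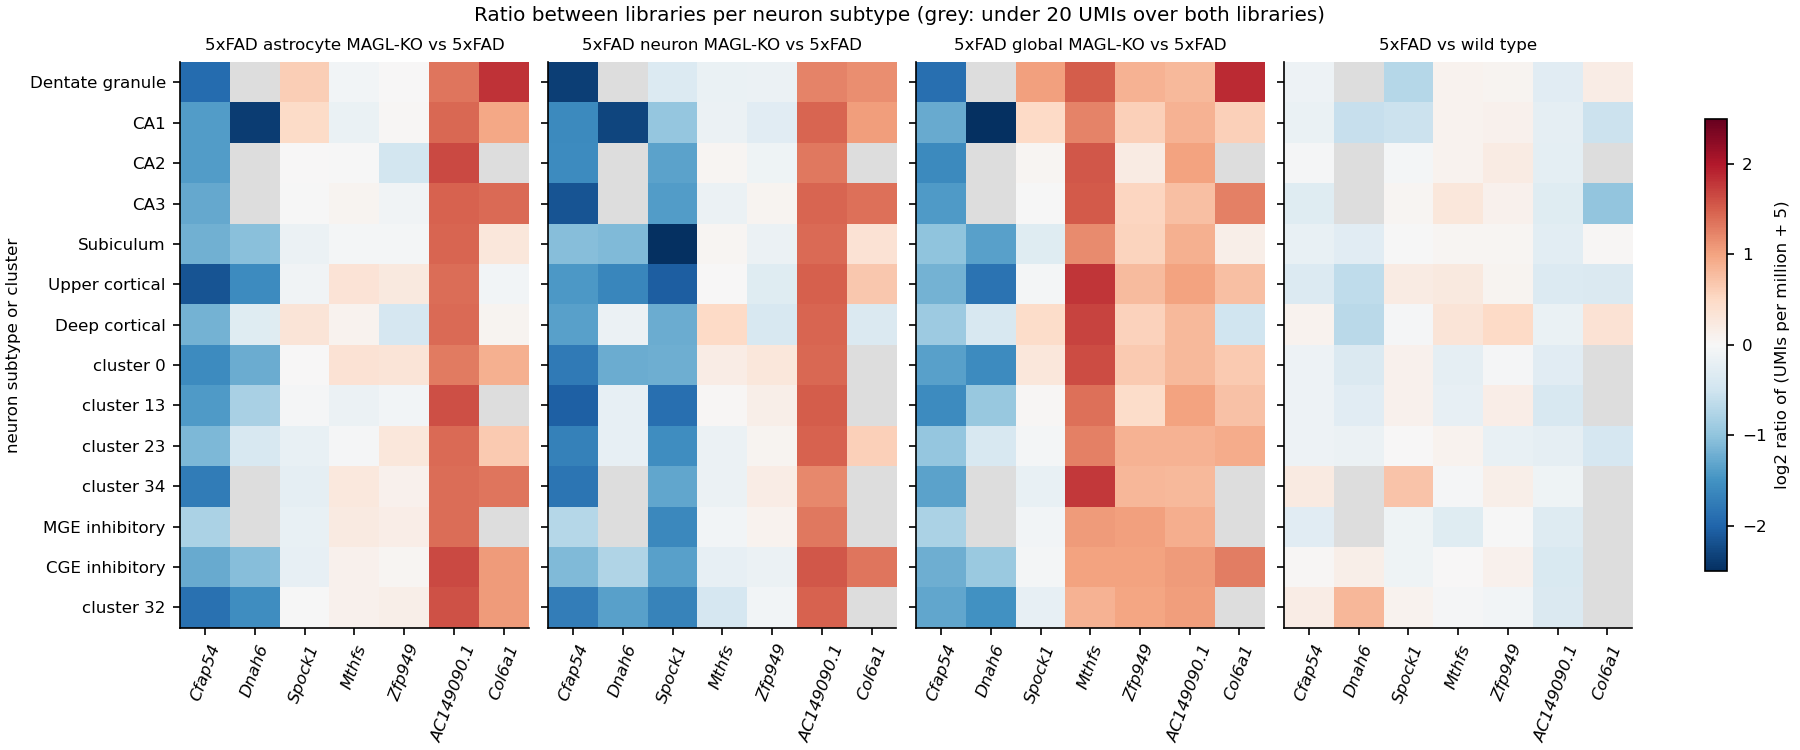
Log2 ratio of CPM plus 5 for each member (columns) in 14 neuron subtypes or clusters (rows), in 4 comparisons: each knockout library against 5xFAD, and 5xFAD against wild type. Grey cells hold under 20 UMIs over both libraries. Cfap54 and AC149090.1 fill the knockout panels, Mthfs is high in 1 panel, and in the astrocyte-KO and global-KO panels the dentate granule row holds the highest Col6a1 ratios.

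In inhibitory neurons 5 members had enough UMIs against 5xFAD in each knockout comparison, Dnah6 and Col6a1 being the others. Of these 2 were past 2-fold in the astrocyte-KO library (background 2.46%), 3 in the neuron-KO library (background 2.84%) and 4 in the global-KO library (background 0.397%). Between 5xFAD and wild type 0 of 6 were past it (background 0.292%). Cfap54 was at 80.4, 79.4, 30.5, 32.5 and 34.4 CPM and AC149090.1 at 256, 197, 592, 562 and 406, in the order of libraries above. Inhibitory neurons thus showed the same sides of 5xFAD as excitatory ones for these genes. The genes were chosen for shifts in neurons of the knockout libraries, inhibitory ones included. Nothing is therefore read from the knockout counts or from these sides.

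**Figure D4:**
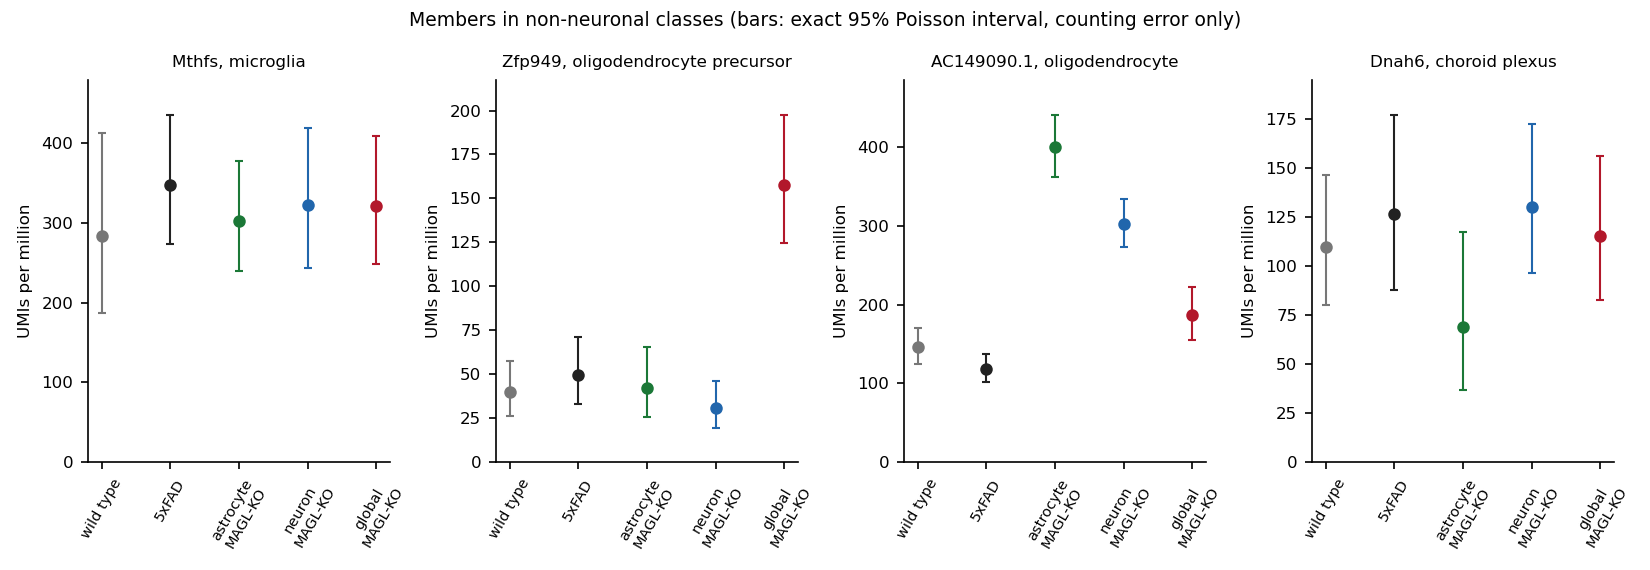
Levels (CPM, with exact 95% Poisson intervals) of 4 members outside neurons in the 5 libraries: Mthfs in microglia, Zfp949 in oligodendrocyte precursors, AC149090.1 in oligodendrocytes and Dnah6 in the choroid plexus class. Mthfs in microglia stays between 284 and 348, and Zfp949 in precursors is high in the global-KO library.

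The genes whose levels ran most alike to each member were sought over 70 points, 5 libraries by 14 neuron subtypes or clusters, after removing each subtype's mean. These points share libraries, so the correlations describe the libraries and carry no p-value. Among the 11967 genes searched, Mthfs and Zfp949 were each the other's closest gene, at a Pearson r of 0.87. Models with Gm or Rik names were not searched. Those named above as high near Mthfs could therefore not be returned, and whether they ran closer was not tested. Cfap54 ran with Pcdh9 (0.84) and Zfp992 (0.82), Dnah6 with Kcnd2 (0.71), and Spock1 with Cadps (0.73). AC149090.1 ran with Ly6h (0.92), Pcsk1n and Ubxn11 (0.91 each), and Col6a1 with Far2os1 (0.72) and the long noncoding RNA Meg3 (0.68). Cfap54 and AC149090.1 had opposite patterns, with r = -0.91, and Cfap54 and Dnah6 gave 0.63. The members were chosen for shifts in these same libraries, so correlations between members follow largely from that choice. Nothing is read from them.

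Other neighbours within 1 Mb were tested in excitatory neurons, where the shares of all genes past 2-fold were 3.32%, 3.85% and 1.23%. Of 11 near Cfap54, Ccdc38, 459 kb from Cfap54, was higher in the astrocyte-KO and neuron-KO libraries, at 2.61-fold and 2.07-fold. Of 14 near Dnah6, Retsat, 419 kb away, was 2.03-fold higher in the neuron-KO library. Near Col6a1, with 26 or 27 neighbours tested, 1700094J05Rik was 2.06-fold higher in the astrocyte-KO library and Col18a1, a collagen gene 388 kb away, 3.73-fold higher in the global-KO library. None of 16 neighbours of Spock1 passed in the neuron-KO library. Col6a1 and Cfap54 share chromosome 10 but lie 16.0 Mb apart.

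Open chromatin was read from the same nuclei as counts in regions joined from the deposited peaks. Regions within 5 kb of a member numbered 81 at Spock1, 23 at Cfap54, 15 at Dnah6, 10 at Mthfs, 7 at Zfp949, 5 at AC149090.1 and 4 at Col6a1. In excitatory neurons, 2 of 86 such regions were past 2-fold in the astrocyte-KO library (background 1.06%), 7 of 82 in the neuron-KO library (background 1.42%), 2 of 93 in the global-KO library (background 1.08%) and 0 of 91 between 5xFAD and wild type (background 0.434%). The first and the third share lie near their background. All 7 in the neuron-KO library were lower, a direction that 0.454% of all regions took. Among regions with at least 5 CPM in a library the counts were 0 of 31, 1 of 30 and 0 of 31 in the knockout libraries.

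Of those 7 regions, 6 lie in introns of Spock1. The region chr13:57484272-57485478 stood at 1.73, 2.54, 2.75, 0.856 and 1.37 CPM in wild type, 5xFAD and the 3 knockout libraries, per 1000000 counts in peaks of the class. The region chr13:57684867-57685779 stood at 3.29, 3.73, 2.95, 1.5 and 3.75, and chr13:57741032-57742002 at 2.17, 3.00, 3.40, 1.5 and 2.78. In each of these 3 the neuron-KO library was the lowest, which follows largely from naming regions that were past 2-fold lower there. In the first of them the global-KO library was also below 5xFAD, where the Spock1 RNA was not low. Their ratios and those of the other 3 regions ran from 0.337 to 0.499. The seventh region lies over an exon of Cfap54, chr10:92942668-92943695, at 2.5, 2.98, 1.58, 1.12 and 1.32 CPM, low in all 3 knockout libraries.

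The promoters moved less than the RNA. In excitatory neurons the Cfap54 promoter region was at 19.3, 18.4, 16.5, 18.2 and 17.6 CPM, with a ratio to 5xFAD of 0.990 [0.896 to 1.09] in the neuron-KO library, where the RNA ratio was 0.252. That of Dnah6 stood at 28.4 in 5xFAD and 24.5, 22.0 and 21.8 in the knockout libraries, the lowest ratio being 0.768 [0.709 to 0.831]. The Spock1 promoter was at 14.4, 16.0, 14.0, 13 and 15.1, with a ratio of 0.816 [0.729 to 0.913] in the neuron-KO library. None of these was past 2-fold.

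Of the members that stood higher, Mthfs had a region just inside its annotated gene, chr9:89210956-89211810, which overlaps the stretch printed above, at 5.29, 5.17, 5.24, 4.97 and 8.63 CPM. The global-KO library was the high one, as for the RNA, at a ratio of 1.67 [1.42 to 1.96]. The adjoining region chr9:89210106-89210940, which holds the annotated start, was lower there, at 3.09 against 3.88 in 5xFAD. The Zfp949 promoter stayed at a ratio of 0.928 [0.844 to 1.02] in that library. An AC149090.1 region was at 294, 280, 299, 361 and 292, within 1.29-fold of 5xFAD. Over its exons, the region JH584304.1:53804-54359 was past 2-fold higher in the astrocyte-KO library, at 3.52 against 1.56 CPM in 5xFAD. It was not listed elsewhere. The exon region JH584304.1:52845-53762 was at 3.18 CPM in 5xFAD and 5.34, 3.47 and 3.90 in the knockout libraries.

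For Col6a1, the promoter region chr10:76725609-76726560 was listed only in the 3 knockout libraries, at 3.76, 2.83 and 3.63 CPM in excitatory neurons. A region that is not listed was not counted, so no level is known for wild type and 5xFAD. Regions listed in a knockout library and not in 5xFAD made up 9.97%, 15.6% and 16% of all regions of the 3 libraries. Among regions near members these were 10 of 99, 21 of 109 and 18 of 114. These shares take each knockout library alone and do not use wild type. The share of regions listed in all 3 knockout libraries and in neither wild type nor 5xFAD is not given here. In dentate granule neurons the Col6a1 promoter stood at 7.22, 5.87 and 9.04 in Xist nuclei and 1.12, 1.25 and 1.51 in Y-linked nuclei, the same side as the RNA and with the same uneven spread of these nuclei over the clusters.

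**Figure D5:**
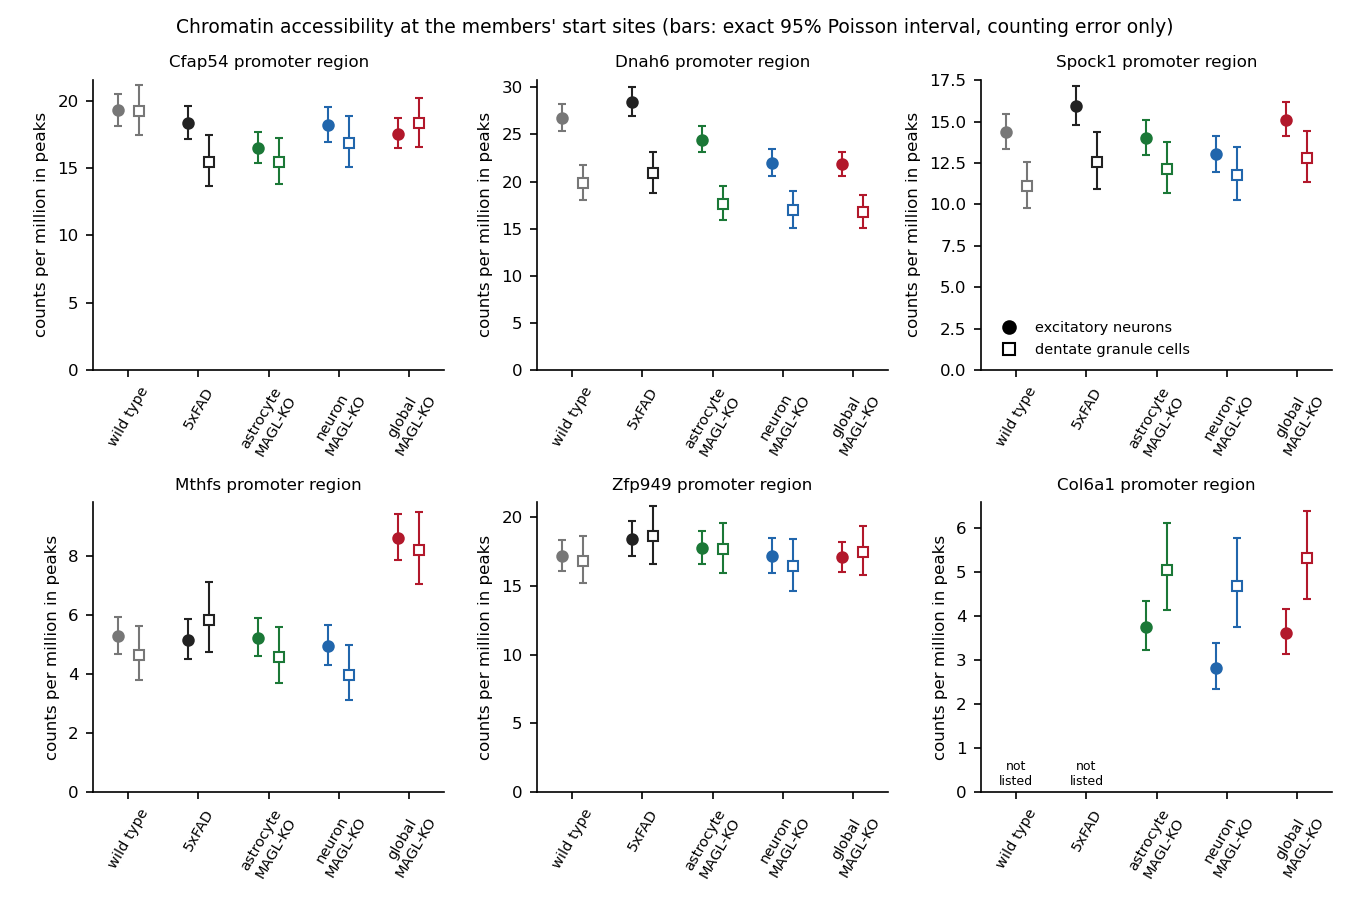
Chromatin counts as CPM in the promoter region of 6 members in the 5 libraries, in excitatory neurons (filled circles) and dentate granule neurons (open squares), with exact 95% Poisson intervals. The Cfap54, Dnah6 and Spock1 promoters differ far less between libraries than their RNA; the Col6a1 region was not listed in wild type and 5xFAD.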

How the data were processed

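RNA and chromatin were read from the same nuclei in 5 libraries, 1 per group, all of 10x Multiome chemistry. The deposited matrices hold counts: UMIs per gene and counts per peak of each nucleus, made by the authors with Cell Ranger ARC 2.0.0 on mm10, per the submitters' processing notes, which also name Seurat without its use. Total UMIs per library ran from 101931020 to 159532813. Here, nuclei were required to show 500 or more genes and no more than 5% mitochondrial UMIs, and likely doublets were removed by rank (Scrublet score, 0.8% per 1000 nuclei). They were clustered with scanpy 1.11.5 (2000 variable genes without the members, 40 components, 15 neighbours, Leiden resolution 1) and named from markers. Clusters with 30% or more of nuclei carrying both Xist and Y-linked UMIs were left unnamed, a limit set after the clusters were seen. Nuclei were called Xist nuclei at 2 or more Xist UMIs with no Y-linked UMI, and Y-linked nuclei at 1 or more UMIs of Ddx3y, Uty, Eif2s3y or Kdm5d with no Xist UMI.

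Counts were summed per library and class with pandas 2.3.3 and intervals taken from scipy 1.17.1; a count of 3 served as the limit that 0 UMIs allow. No replicate exists, so no test was run. The members and lists were chosen with earlier results of these data known. Genes named beside the members are those of the lists past 2-fold in excitatory neurons, neighbours within 1 Mb past it where the member was, and the genes most alike to each member by Pearson r of log2(CPM + 5) among genes with at least 500 UMIs in neurons; some list genes within 2-fold are named for reference. Not every gene that this rule selects is reported here. The search by Pearson r skipped models with Gm or Rik names, Tsix and Xist, and also mitochondrial and Y-linked ones. Peaks of the 5 libraries were joined where they overlapped. Promoter windows came from RefSeq (GRCm38.p6) for 5 of 7 members, with bases that the gene annotation places in exons removed, except in 1 window of 30 bases at Col6a1; Cfap54 and AC149090.1 were not matched. The scripts were tested on simulated data.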

Additional observations from a re-analysis of the deposited data

Results flagged for a closer look

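In 3 instances over whole cell classes, the nuclei with Xist and the nuclei with Y-linked UMIs of 1 library lay on opposite sides of the same nuclei in 5xFAD. At least 1 of each pair was past 2-fold. Single dentate granule clusters were not counted. In cluster 12, for example, Mthfs Xist nuclei were at 10.4 and 7.33 CPM in the astrocyte-KO and neuron-KO libraries against 22.0 in 5xFAD. Y-linked nuclei there were at 16.3 and 15.9 against 14.0, on 9 and 6 UMIs against 25. Smaller differences of opposite side are not counted here, such as Spock1 in excitatory neurons of the astrocyte-KO library (232 against 275 CPM in Xist nuclei and 284 against 254 in Y-linked nuclei) and in its oligodendrocytes (459 against 564 and 787 against 549). The difference was not tested in any of them, and it rests on 1 library per group. Col6a1 in dentate granule neurons had a log2 CPM ratio of 3.35 in Xist nuclei and -0.51 in Y-linked nuclei of the astrocyte-KO library. In the global-KO library the values were 3.62 and -0.68. The Y-linked values rest on 7 and 9 UMIs against 17 in 5xFAD, with ratios of 0.702 [0.246 to 1.78] and 0.626 [0.246 to 1.49], so their side of 5xFAD is within counting error. In the astrocyte-KO and global-KO libraries, dentate granule cluster 12 held 541 and 723 Xist nuclei against 51 and 72 Y-linked nuclei, so the Xist and Y-linked nuclei are spread differently over the clusters. Zfp949 in oligodendrocytes of the neuron-KO library had a log2 ratio of 1.28 in Xist nuclei (41 UMIs against 8) and -0.20 in Y-linked nuclei (11 against 37).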

How the results depend on the processing

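Each ratio of a member past 2-fold in excitatory neurons was recomputed under 10 alternatives. All 13 kept their direction, and 10 of 13 stayed past 2-fold under every alternative. These ratios chose the genes, so this describes the processing only. The alternative with a limit of 20 UMIs changes which genes are tested and cannot move a ratio. The exceptions were those of Col6a1, whose log2 ratios in Y-linked nuclei alone were 0.99, 0.76 and 0.51 in the astrocyte-KO, neuron-KO and global-KO libraries, and 0.88 in the neuron-KO library with 5 CPM added. The alternative without nuclei carrying both Xist and Y-linked UMIs was chosen after seeing the data. With only regions of at least 5 CPM in a library, the count of members' chromatin regions past 2-fold was 0, 1 and 0 in those 3 libraries, fewer regions being tested (31, 30 and 31). With 5 CPM added, calls over all genes split into 7 higher and 3 lower, 37 and 8, and 10 and 3. All 35 shares of nuclei with a UMI were lower when each nucleus was thinned to 5000 UMIs. Removing UMIs tends to lower such shares, so nothing is read from this. Depth limits Dnah6 and Col6a1 outside the subtypes named. No paired analysis was possible because every group is a single library.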
